A study of Mus musculus with 12 samples.

Results

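The genes described here are 10 regulators, markers and secreted products of cellular senescence: Cdkn2a, Cdkn2b, Cdkn2c, Lmnb1, Glb1, Igfbp7, Igfbp3, Igfbp4, Igfbp5 and Il6. The set was put together apart from p53 targets such as Cdkn1a, but p53 control of single members, Igfbp3 among them, was not tested. The 10 genes were taken by gene symbol from the deposited table of 19726 genes. All 10 were present, and all 10 passed the filter on low counts that left 15863 genes for testing. The libraries came from lungs of mice whose strain the labels write as IRC, 3 libraries in each of 4 groups. Control animals were untreated, and the AOS group was given alginate oligosaccharides, short sugar chains made from a seaweed polysaccharide, at 10 mg/kg for 5 weeks. The busulfan group was given 40 mg/kg once of busulfan, an alkylating drug that crosslinks DNA, and the combined group (busulfan + AOS) was given busulfan once, at a dose not stated separately, before the same AOS course. The labels used here give no age and no vehicle treatment of the controls, and do not say whether the 3 libraries of a group are separate animals, so the p-values measure the spread between these libraries.

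Senescence is a lasting exit from the cell cycle that follows DNA damage, telomere loss or oncogene activity. One arm runs through p53 and Cdkn1a. The other runs through the INK4 proteins encoded by Cdkn2a, Cdkn2b and Cdkn2c, which bind CDK4 and CDK6 and keep the retinoblastoma protein active. Senescent cells are also known for losing lamin B1 (Lmnb1) from the nuclear lamina, for high lysosomal beta-galactosidase activity (Glb1) and for a secretory phenotype that includes IL-6, the insulin-like growth factor binding proteins, chemokines and proteases.

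Of these 10 genes, Igfbp7 was the one that differed past the threshold with busulfan, and it did so when both pairs of groups were averaged. The busulfan average sets the 6 libraries with busulfan against the 6 without it. At an adjusted p under 0.05 by edgeR's quasi-likelihood test, 1 of the 10 genes rose and 0 fell, where 11.8% of all tested genes were called. DESeq2 also called 1 of the 10, against 16.4% of all genes. Igfbp7 rose by 0.34 on the log2 scale (SE 0.06), Igfbp5 and Igfbp3 had unadjusted p under 0.05 but did not pass (3 genes in all had an unadjusted p under 0.05, against 29.2% of all genes), and Cdkn2b, Cdkn2c, Lmnb1, Igfbp4 and Glb1 had estimates within 0.08 of 0. The median log2 fold change was -0.0034 over the 10 genes and -0.01 over all genes tested.

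Sequence upstream of a transcript start is shown for the 3 genes with an unadjusted p under 0.05 in the busulfan average, a share near the 29.2% of all genes. All are binding protein genes, and their log2 estimates differed in direction (0.34 for Igfbp7, 0.42 for Igfbp3 and -0.53 for Igfbp5). Each line holds the 250 bases before a transcript start that RefSeq lists, 5′ to 3′, from RefSeq's GRCm38.p6, the assembly that mm10 names: chr5:77408046-77408295 for Igfbp7, chr1:72874866-72875115 for Igfbp5 and chr11:7213924-7214173 for Igfbp3, all on the minus strand. The Igfbp3 start lies inside the gene's annotated range (chromosome 11, 7206086 to 7215498), not at its outer end, and so does that of Igfbp4. Capitals mark the GC box GGGCGG on either strand, a short motif bound by Sp1-type factors, and the TATA box TATAAA on either strand; these motifs do not overlap.
Igfbp7: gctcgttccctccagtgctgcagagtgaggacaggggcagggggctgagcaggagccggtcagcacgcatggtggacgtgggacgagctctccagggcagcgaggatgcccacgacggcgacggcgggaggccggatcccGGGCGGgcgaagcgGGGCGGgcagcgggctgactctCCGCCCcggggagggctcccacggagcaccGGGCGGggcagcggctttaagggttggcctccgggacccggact
Igfbp5: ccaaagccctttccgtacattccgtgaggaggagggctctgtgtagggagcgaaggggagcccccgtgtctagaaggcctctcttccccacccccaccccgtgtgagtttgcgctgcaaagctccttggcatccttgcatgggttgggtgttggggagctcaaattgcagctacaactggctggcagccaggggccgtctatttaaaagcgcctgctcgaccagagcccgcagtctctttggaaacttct
Igfbp3: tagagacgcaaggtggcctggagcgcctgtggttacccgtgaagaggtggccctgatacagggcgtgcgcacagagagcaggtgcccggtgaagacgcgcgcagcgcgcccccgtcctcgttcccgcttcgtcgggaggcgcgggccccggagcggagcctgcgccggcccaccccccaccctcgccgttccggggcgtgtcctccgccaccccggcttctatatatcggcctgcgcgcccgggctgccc
The Igfbp7 window held 4 GC boxes and 26 CpG dinucleotides, and the Igfbp5 and Igfbp3 windows held 0 GC boxes with 10 and 32 CpG dinucleotides. A TATA box in this spelling was at 0 in each of these windows and occurred once (1) in that of Igfbp4. Of 32851 mouse promoter windows of the same length, 32.7% held at least 1 GC box, 4.09% held 4 or more, and 12.4% held the TATA box. Windows were examined for 9 of the 10 genes, all except Lmnb1.

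Per unit of transcript length, the binding protein genes were the most abundant of the set. Igfbp7, which encodes a secreted relative of the family that binds insulin-like growth factors weakly and lies in vascular basement membranes, stood at 612 FPKM on average over the 12 libraries (lowest 494, highest 749). Igfbp5 followed at 146 ± 56.7 FPKM, Igfbp4 at 122 ± 13.8 and Igfbp3 at 66.2 ± 19.2 (SD over the 12 libraries). Igfbp7 was above Igfbp5 in 12 of 12 libraries without overlap of the ranges, whereas Igfbp5 was above Igfbp4 in 7 of 12, so the order of those neighbours was within the spread. Cdkn2b came next at 24.6 ± 3.57 FPKM, then Cdkn2c at 19.8 ± 4.77, with overlapping ranges. Glb1 stood at 10.1 ± 2.07 FPKM and Lmnb1 at 6.85 ± 0.863, again overlapping. Cdkn2a (1.70 ± 1.78 FPKM) and Il6 (0.772 ± 0.515 FPKM) were lowest and overlapped each other.

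**Figure D1:**
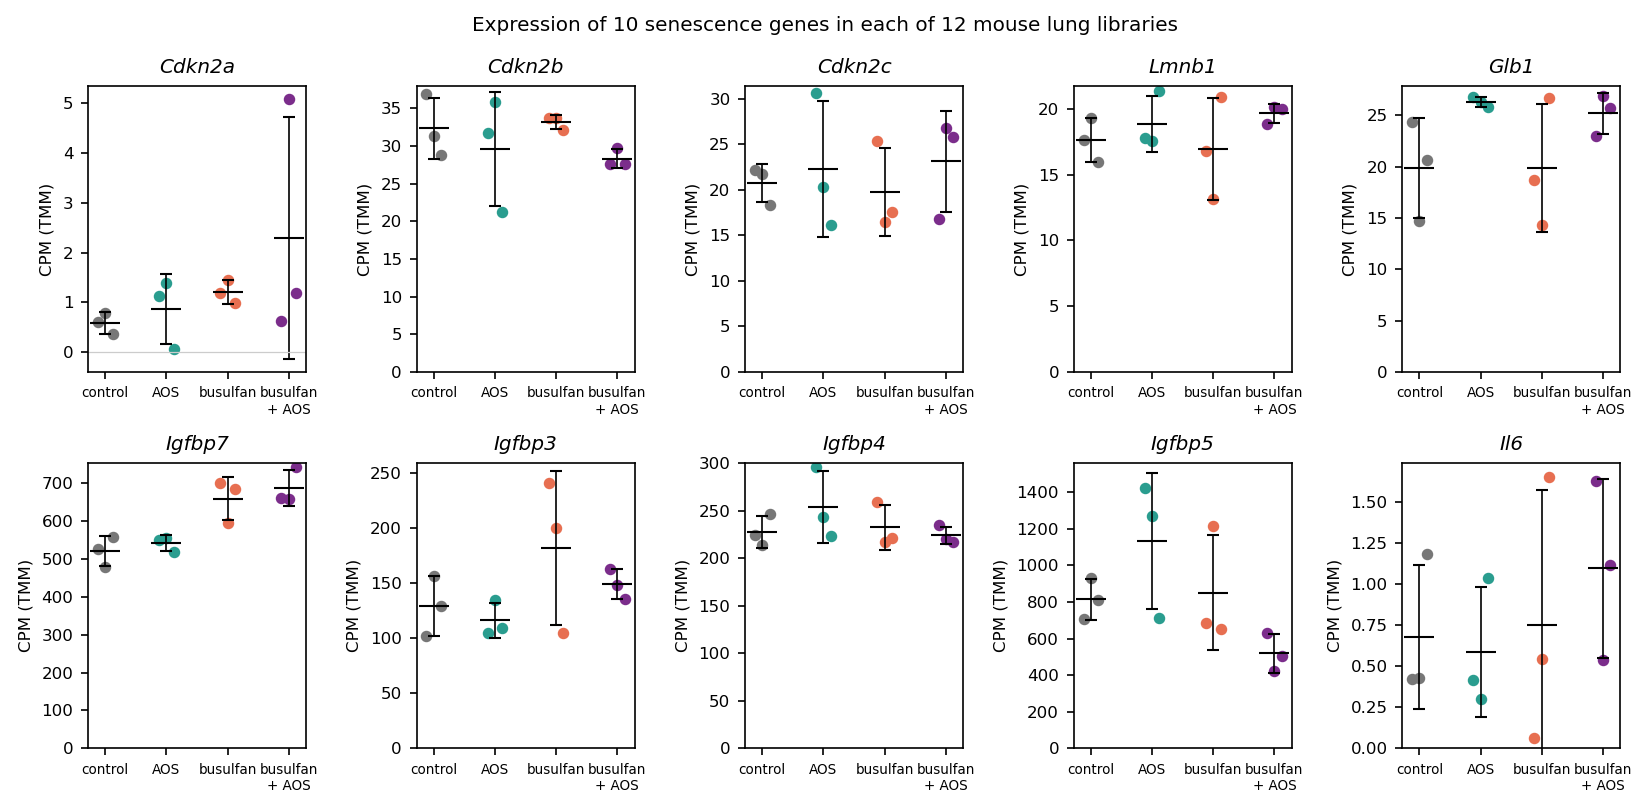
Level of each of the 10 genes in CPM (library-size-scaled counts, with TMM factors) in every library, with 1 point per library, a bar at the group mean and whiskers of 1 SD (n = 3 per group). The 6 Igfbp7 points with busulfan lie between 595 and 742 CPM, above all 6 points without it (479 to 560 CPM), while the groups overlap for Cdkn2c, Lmnb1, Igfbp4 and Il6.

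Library totals ran from 16209221 to 17168764 estimated counts. Lung was checked by its markers: summed alveolar type 2 transcripts, including the surfactant genes, held 18445 to 26792 CPM in every library. Transcripts of tissues outside the lung were uneven. Summed markers of skeletal muscle reached 3556 CPM in control replicate 2 against 5.15 to 639 CPM elsewhere. Liver markers reached 1028 CPM in control replicate 3 against 19.1 to 740 CPM elsewhere, and fat markers 808 CPM in AOS replicate 1 against 9.74 to 133 CPM elsewhere. Results are given with and without these 3 libraries where that changed a call. In whole tissue, fewer cells of a type and less RNA per cell cannot be told apart.

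Cdkn2a encodes the INK4 inhibitor p16 and, from a separate first exon, the ARF protein that stabilises p53. RefSeq lists 2 start sites for it, 12427 bases apart on chromosome 4 (gene at 89274473 to 89294619), and the counts per gene do not separate them. In controls it stood at 0.602, 0.791 and 0.355 CPM, and with AOS at 1.13, 1.39 and 0.0612 CPM. After busulfan it stood at 1.20, 1.46 and 0.980 CPM, and in the combined group at 0.626, 5.09 and 1.18 CPM. Busulfan libraries lay above the control libraries without overlap, as did 11.8% of all genes in that direction, and the combined and AOS groups overlapped. The value of 5.09 CPM, in combined replicate 2, rests on 85 counts, while the other 11 libraries held 1 to 24 counts. The busulfan average was 1.23 on the log2 scale (SE 0.62, edgeR adjusted p = 0.218), with a 95% interval from -0.15 to 2.61. Without combined replicate 2 it was 0.56 (edgeR adjusted p = 0.567). At these counts an interval this wide includes both no change and a several-fold rise.

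Cdkn2b, which encodes the INK4 inhibitor p15, lies 11669 bases from Cdkn2a on the same chromosome (89306289 to 89311032). It stood at 36.9, 31.3 and 28.9 CPM in controls, 31.7, 35.9 and 21.2 with AOS, 33.8, 33.8 and 32.1 after busulfan, and 27.5, 29.8 and 27.6 in the combined group. The averages with and without busulfan were 30.8 ± 2.88 and 31.0 ± 5.66 CPM (SD, n = 6 each), a log2 difference of -0.01 (95% interval -0.27 to 0.24, edgeR adjusted p = 0.954). The interval thus ran from a 0.832-fold to a 1.18-fold level. Cdkn2c, which encodes the INK4 inhibitor p18, averaged 21.5 ± 4.99 CPM both with and without busulfan, with single libraries from 16.1 to 30.6 CPM. Its log2 difference was -0.01 (95% interval -0.41 to 0.39, edgeR adjusted p = 0.981). The direction of these near-zero values changed between settings, as given in the closing section.

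For comparison, Cdkn1a, the CDK inhibitor gene of the p53 arm, stood at 12.9 to 32.8 CPM in the 6 libraries without busulfan. It stood at 117, 174 and 72.9 CPM after busulfan and at 168, 152 and 20.3 CPM in the combined group. It rose in the busulfan average by 2.51 on the log2 scale (SE 0.48, edgeR adjusted p = 0.0106), and did not pass in the separate pairs (edgeR adjusted p = 0.0899 and 0.0799). Without control replicates 2 and 3 and AOS replicate 1 together, which left 1 control library, Cdkn1a lost its call and kept its direction. Combined replicate 3 lay within the range of the 6 libraries without busulfan for Cdkn1a, although its Gdf15 level, 18.7 CPM, was above their 1.07 to 2.25 CPM.

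Lmnb1 encodes lamin B1, a filament protein of the inner nuclear membrane. It stood at 17.7, 19.3 and 15.97 CPM in controls, 17.8, 17.6 and 21.4 with AOS, 16.8, 13.2 and 21.0 after busulfan, and 18.8, 20.2 and 20.03 in the combined group. The groups overlapped, and the lowest and the second highest values were both busulfan libraries. The busulfan average differed by 0.0012 on the log2 scale (95% interval -0.24 to 0.24, edgeR adjusted p = 0.995), an interval from 0.848-fold to 1.18-fold. B cell markers, given because lymphocytes also make lamin B1, summed to 123 to 266 CPM without busulfan and 35.4 to 88.7 CPM with it. All 10 fell in the same average, where 4.81% of all genes fell. The B cell sum had r = -0.02 with Lmnb1 over 12 libraries.

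Among related genes of the nuclear lamina and its chromatin tethers, 4 of 15 rose in the busulfan average and 0 fell, where 7.02% of all genes rose and 4.81% fell. This list, like the other related lists, was chosen with earlier results of these data known, so the count is a description. The list's median log2 value was -0.0046, against -0.01 for all genes, and Tmpo was lower without passing (-0.12, edgeR adjusted p = 0.0753). Lmnb2, the other B-type lamin, rose from 11.98 to 15.7 CPM as a mean of libraries (log2 0.39, SE 0.09, edgeR adjusted p = 0.0172). Lmna, the A-type lamin gene, rose by 0.27 on the log2 scale (SE 0.07), Zmpste24, the protease that matures prelamin A, by 0.14 (SE 0.04), and Cbx5, which encodes heterochromatin protein HP1 alpha, by 0.15 (SE 0.04). Lmnb2 kept its call whichever of the 12 libraries was removed. That of Lmna ended without AOS replicate 1 or 2, busulfan replicate 3, combined replicate 1 or control replicate 1 or 2 (edgeR adjusted p up to 0.0660). Zmpste24 kept its call in 3 of those fits, without busulfan replicate 2, combined replicate 1 or control replicate 1, and Cbx5 in 3, without busulfan replicate 1, combined replicate 3 or control replicate 3 (edgeR adjusted p up to 0.0845 and 0.0829). Without control replicates 2 and 3 and AOS replicate 1 together, which left 1 control library, Lmnb2, Lmna, Zmpste24 and Cbx5 lost their calls and kept their direction.

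Glb1 encodes the lysosomal beta-galactosidase whose activity is stained as a senescence marker. Controls stood at 24.4, 14.7 and 20.6 CPM and AOS libraries at 26.7, 26.3 and 25.8 CPM. Busulfan libraries stood at 18.7, 14.3 and 26.7 CPM and combined libraries at 23.0, 26.9 and 25.7 CPM. The busulfan average was -0.03 on the log2 scale (95% interval -0.37 to 0.31, edgeR adjusted p = 0.909). The AOS libraries lay above the controls without overlap, as 4.73% of all genes did in that direction. Averaged over busulfan, Glb1 was 0.37 higher with AOS on the log2 scale (SE 0.15, unadjusted p = 0.0349 by edgeR's quasi-likelihood test), which did not pass after adjustment over all genes (edgeR adjusted p = 0.855). Of 22 tested lysosomal glycosidases and related proteins, 2 rose in the busulfan average and 0 fell, a share near the 7.02% of all genes that rose. One of them was Ctsd, which encodes the protease cathepsin D (log2 0.33, SE 0.05, edgeR adjusted p = 0.00599). Neu1 and Ctsa, whose products form a complex with beta-galactosidase and which were named for that role outside the naming rule, had log2 values of -0.10 (SE 0.04) and -0.01 (SE 0.06) and did not pass.

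Igfbp7 (Entrez gene 29817, chromosome 5, 77349240 to 77408045), whose promoter with 4 GC boxes is shown above, stood at 526, 479 and 560 CPM in controls and at 551, 556 and 518 CPM with AOS. After busulfan it stood at 701, 595 and 684 CPM, and in the combined group at 662, 660 and 742 CPM. All 6 libraries with busulfan were above all 6 without it, which was so for 3.93% of tested genes. Means were 674 ± 49.3 CPM with and 532 ± 30.8 CPM without busulfan (SD, n = 6 each), a 1.27-fold rise with a 95% interval from 1.16-fold to 1.39-fold (edgeR adjusted p = 0.00689).

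The Igfbp7 difference had the same size in both pairs of groups, which share no library. It was 0.34 on the log2 scale for busulfan against control (SE 0.08, edgeR adjusted p = 0.0770) and 0.34 for the combined group against AOS (SE 0.08, edgeR adjusted p = 0.0563). Neither passed with 3 libraries against 3 by edgeR, and both passed by DESeq2 (adjusted p = 0.00506 and 0.00360). The interaction, which tests whether the busulfan difference depends on AOS, was 0.01 (95% interval -0.25 to 0.26). The call in the average held in each of the 12 fits without a library (edgeR adjusted p up to 0.0213). Without control replicates 2 and 3 and AOS replicate 1, the libraries highest in muscle, liver and fat transcripts, the log2 difference was 0.34 and the edgeR adjusted p = 0.110, with 89 of all genes called in that fit in place of 1877.

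Cell type markers also moved with Igfbp7. The 7 alveolar type 1 markers summed to 4849 to 5726 CPM without busulfan and 6016 to 6613 CPM with it. In the busulfan average 5 of them rose and 0 fell, where 7.02% of all genes rose and 4.81% fell. The correlation of the type 1 sum with Igfbp7 was r = 0.82 over 12 libraries, but 0.50 within the 6 without and -0.27 within the 6 with busulfan. The sums of the 12 endothelial markers overlapped (5765 to 7244 CPM without and 5596 to 6951 CPM with busulfan), with r = -0.02 over 12 libraries. Within the 6 libraries without busulfan their r was 0.66, and within the 6 with it 0.16. Single endothelial markers did differ in the busulfan average, where 2 rose and 2 fell (Tek, Car4, Emcn and Pecam1), which the sum does not show. Tek was also called lower in the combined group against AOS, where 2.3% of all genes were called. The 11 fibroblast markers, of which 0 were called in the busulfan average, stood at 4308 to 5455 and 4838 to 6014 CPM (r = 0.74). Over the 12 libraries, lower sums went with higher Igfbp7 for the 10 B cell markers given above (r = -0.78). The same held for 6 club cell markers, at 38154 to 63975 CPM without and 19292 to 44054 CPM with busulfan (r = -0.70), of which 0 were called. For the B cell markers r was -0.38 within the 6 libraries without busulfan and 0.36 within the 6 with it. For the fibroblast and club cell markers r was computed over the 12 libraries only. None of the markers in these lists was at 0 in any library, and their part in the Igfbp7 difference was not tested. RefSeq places Polr2b, an RNA polymerase subunit gene, partly over Igfbp7, and strand use in counting is not given in the sources used here. Polr2b itself had a log2 value of -0.04 (SE 0.05). Annotated overlaps also exist for Igfbp7 with Gm34648, Glb1 with Tmppe and Gm30254, Cdkn2b with Gm12610, and Il6 with A230098N10Rik. Their part in the counts was not tested. The genes whose log2 CPM followed Igfbp7 most closely over the 12 libraries were Map7d1 (r = 0.94), Serpina3n (r = 0.94) and Ddah1 (r = 0.94), of 13850 genes searched.

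**Figure D2:**
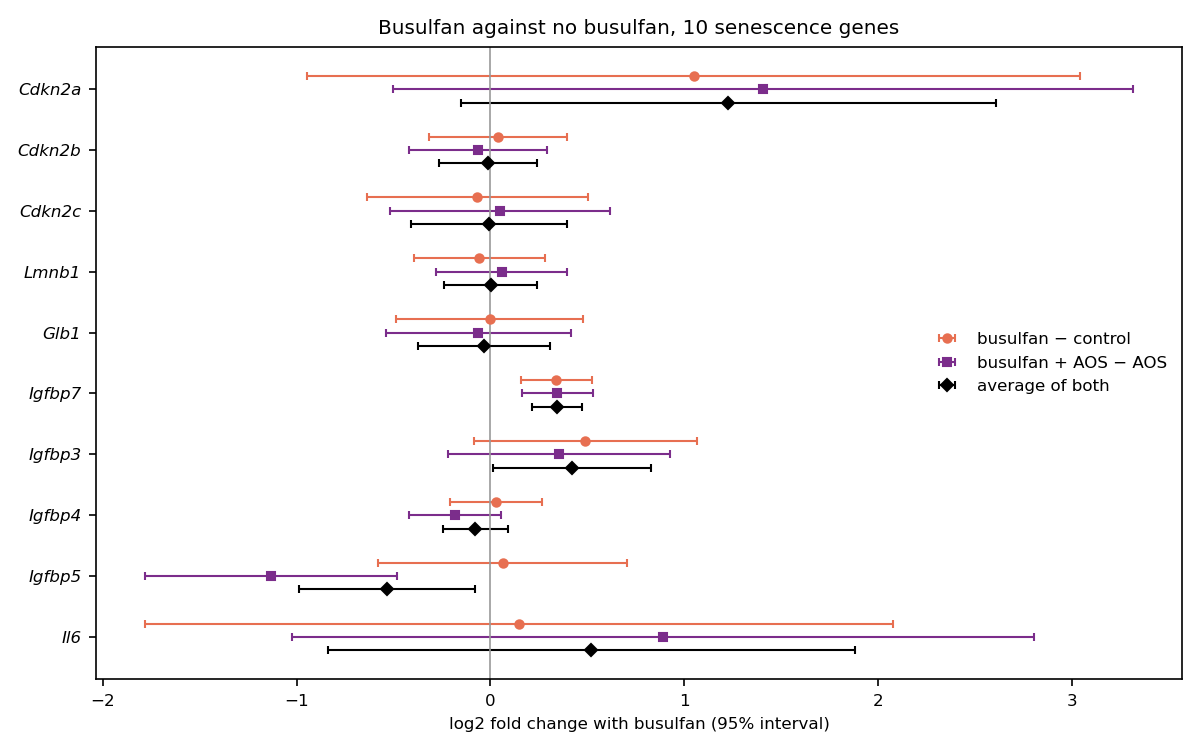
Log2 fold change with busulfan (x axis) and its 95% interval for each of the 10 genes, for busulfan against control, for the combined group against AOS and for the average of both. The 3 Igfbp7 estimates coincide at 0.34, the Igfbp5 estimates are 0.06 and -1.13 in the separate pairs, and the Cdkn2a and Il6 intervals are wide.

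Igfbp3 encodes the main carrier of insulin-like growth factors in serum, which is also secreted by stromal and endothelial cells. It stood at 102, 157 and 130 CPM in controls, 105, 135 and 110 with AOS, 241, 200 and 104 after busulfan, and 163, 148 and 136 in the combined group. The first 2 busulfan replicates were the highest of all libraries, and the third lay within the range of the untreated ones. The busulfan average was 0.42 on the log2 scale (SE 0.18, unadjusted p = 0.0432 and adjusted p = 0.157 by edgeR's quasi-likelihood test). Without busulfan replicate 3 it was 0.56 and passed (edgeR adjusted p = 0.0264). Igf2, a growth factor that this protein binds, had the pattern most like that of Igfbp3 (r = 0.85 over 12 libraries).

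Igfbp4 encodes a binding protein that holds back insulin-like growth factors until it is cleaved by the protease PAPP-A. Its 12 values ran from 213 to 296 CPM, with the highest in AOS replicate 1. Its coefficient of variation over the 12 libraries, 10.2%, was the lowest of the 10 genes. Means were 228 ± 16.7 CPM with busulfan and 241 ± 29.8 CPM without it (SD, n = 6 each), a log2 difference of -0.08 (95% interval -0.24 to 0.09, edgeR adjusted p = 0.529).

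Igfbp5 encodes a binding protein held in the extracellular matrix. It stood at 706, 929 and 808 CPM in controls, and at 1421, 1271 and 714 CPM with AOS. It stood at 685, 1216 and 653 CPM after busulfan and at 628, 421 and 507 CPM in the combined group. The combined libraries were the 3 lowest of the 12, and 2 AOS libraries were the highest. Against AOS the combined group was lower by a log2 value of -1.13 (SE 0.29), with unadjusted p = 0.00291 and adjusted p = 0.0674 by edgeR's quasi-likelihood test, and adjusted p = 0.0118 by DESeq2. For busulfan against control the log2 value was 0.06 (SE 0.29). The interaction was -1.19 (95% interval -2.10 to -0.28), with unadjusted p = 0.0149 and adjusted p = 0.989 by edgeR's quasi-likelihood test, and so was not called over all genes.

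In single fits Igfbp5 did pass. The comparison of the combined group with AOS passed without AOS replicate 3 (log2 -1.39, edgeR adjusted p = 0.0470) or busulfan replicate 2 (log2 -1.14, edgeR adjusted p = 0.0481). The busulfan average, -0.53 on the log2 scale (SE 0.21, edgeR adjusted p = 0.116), passed without the same libraries (log2 -0.66 and -0.71, edgeR adjusted p = 0.0484 and 0.0376).

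Igfbp5 moved with markers of mesothelium, the cell sheet that covers the lung surface. The 6 mesothelial markers summed to 459 to 575 CPM in controls, 433 to 631 CPM with AOS, 502 to 629 CPM after busulfan and 369 to 480 CPM in the combined group. Over 12 libraries r was 0.87, the highest of the 14 marker lists and picked after these values were seen, and it was 0.74 within the 6 libraries without and 0.95 within the 6 with busulfan. Fat markers had r = 0.72, with AOS replicate 1 highest in fat markers (808 CPM) and in Igfbp5. The genes most like Igfbp5 over the 12 libraries were Rspo1 (r = 0.94), which encodes a Wnt pathway agonist, Tpbgl (r = 0.92) and Bnc1 (r = 0.92), which encodes a zinc finger transcription factor. None of the mesothelial markers was at 0 in any library, and the part of mesothelial or fat transcripts in the Igfbp5 values was not tested.

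**Figure D3:**
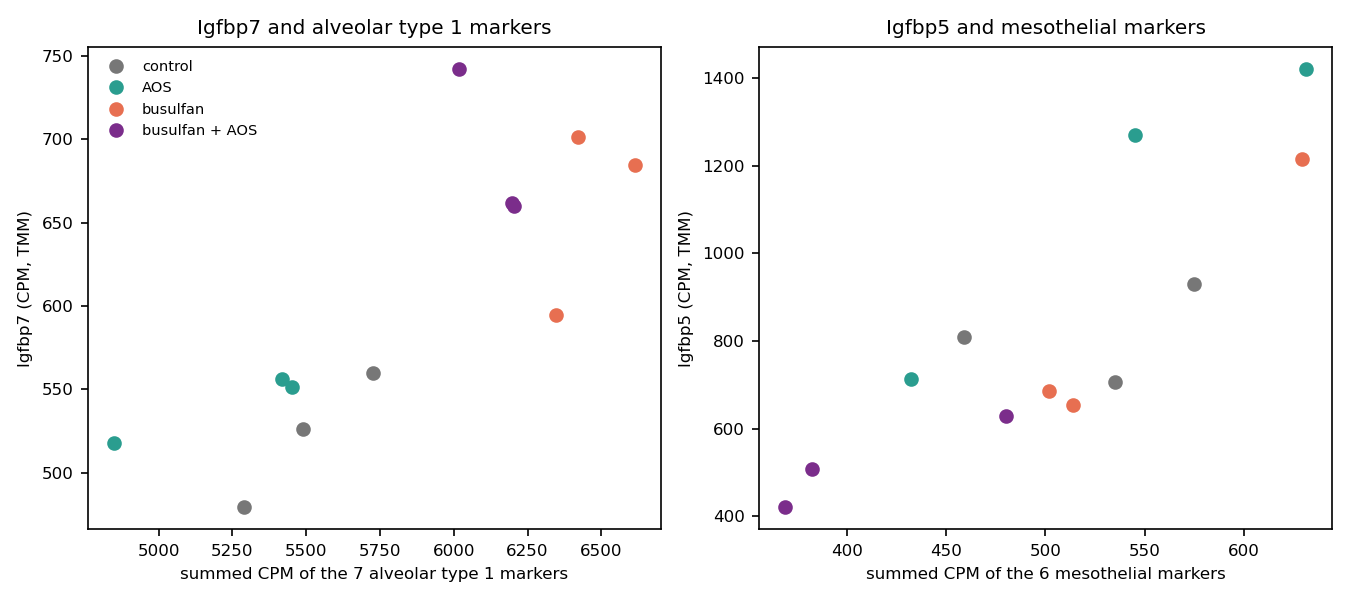
Level of Igfbp7 against the summed alveolar type 1 markers, and of Igfbp5 against the summed mesothelial markers, both in CPM, with 1 point per library coloured by group. Igfbp7 separates the libraries with and without busulfan, as the type 1 markers do, whereas Igfbp5 tends to be higher where the mesothelial sum is higher (r = 0.87 over 12 libraries), with exceptions among libraries of a group.

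Il6, the gene of the inflammatory cytokine interleukin 6, was close to the limit of detection. Its counts were 7, 7 and 20 in controls, 7, 5 and 17 with AOS, 1, 9 and 27 after busulfan, and 26, 9 and 19 in the combined group. In CPM these were 0.422, 0.426 and 1.18, then 0.416, 0.303 and 1.04, then 0.0598, 0.547 and 1.65, then 1.63, 0.538 and 1.12. The groups overlapped, and the lowest and highest of the 12 libraries were both in the busulfan group. A count of 3, which an observed 0 allows, equals 0.175 to 0.185 CPM. The busulfan average was 0.52 on the log2 scale (95% interval -0.84 to 1.88, edgeR adjusted p = 0.606), an interval that includes both a fall and a several-fold rise. Without busulfan replicate 3 it was -0.13. Of 17 tested genes of IL-6 family signalling, 1 rose in the busulfan average and 0 fell, a share near the 7.02% of all genes that rose. It was Rela, a subunit of the transcription factor NF-kappaB (log2 0.24, SE 0.05, edgeR adjusted p = 0.0139), and the median of the list was 0.20. At an unadjusted p under 0.05 by edgeR's quasi-likelihood test there were 6 of the 17, against 29.2% of all genes. Besides Rela they were Stat3 (log2 0.23), Adam17 (0.20), Nfkbia (0.30), Osmr (0.24) and Socs3 (0.58), all higher without passing. The receptor chains Il6ra and Il6st, named for their role outside the naming rule, had log2 values of -0.01 (SE 0.09) and -0.06 (SE 0.05) and did not pass.

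Within the separate pairs of groups, 0 of the 10 genes passed for busulfan against control (1.21% of all genes called) and 0 for the combined group against AOS (2.3% called) by edgeR. At an unadjusted p under 0.05 the counts were 1 and 2, against 18.7% and 20.5% of all genes. DESeq2 called 1 gene, Igfbp7, in the first pair and 2, Igfbp7 and Igfbp5, in the second, where it called 5.67% and 7.55% of all genes. Libraries did not overlap for 2 genes in the first pair (Igfbp7 and Cdkn2a, against 23.2% of all genes) and for 3 in the second (Igfbp7, Igfbp5 and Igfbp3, against 27.3%). These shares are near the background.

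AOS was not followed by a called change in any of the 10 genes. For AOS against control, for the combined group against busulfan, for the average over busulfan and for the interaction, edgeR called 0 of the 10 genes and 0 (0%) of all genes. At an unadjusted p under 0.05 it counted 0, 1, 1 and 1 of the 10 genes, against 4.05%, 6.34%, 5.34% and 4.79% of all genes in the same order. They were Igfbp5 for the combined group against busulfan (log2 -0.72, SE 0.29), Glb1 in the average and Igfbp5 in the interaction. DESeq2 called 0 of the 10 in each of these, and 12, 32, 12 and 18 of all genes (0.0741%, 0.185%, 0.0707% and 0.102%). For Igfbp7 the AOS average was 0.06 on the log2 scale (95% interval -0.07 to 0.19), and for Cdkn2b it was -0.18 (SE 0.11). The 10 genes did not move as a unit: over the 45 pairs of genes, correlations across the 12 libraries ran from -0.67 (Igfbp3 and Glb1) to 0.62 (Lmnb1 and Glb1) with a median of -0.00045.

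The other genes of these pathways were followed in the busulfan average, in lists chosen for their roles but with earlier results of these data known. Each count below is given beside the 7.02% of all genes that rose and the 4.81% that fell. These counts are descriptions and not tests of a list. Among CDK inhibitors and the retinoblastoma pathway 4 of 18 rose and 0 fell. They were Cdkn1a and the D-type cyclins, the partners of the kinases that INK4 proteins bind. Ccnd2 stood at 162 to 213 CPM in the 6 libraries without and 281 to 404 CPM in the 6 with busulfan, a log2 rise of 0.84 (SE 0.11, edgeR adjusted p = 0.00189). Ccnd1 stood at 88.0 to 137 and 166 to 230 CPM, a log2 rise of 0.87 (SE 0.12). Both also passed in each pair of groups and did not overlap. Ccnd3 rose by 0.34 (SE 0.09), a call that ended without AOS replicate 1 or 2, busulfan replicate 3, combined replicate 1 or 2, or control replicate 2 (edgeR adjusted p up to 0.0743). Of 16 regulators of the Ink4 locus, 1 fell and 0 rose. It was Cbx7, a Polycomb protein that represses Cdkn2a (log2 -0.32, SE 0.08, edgeR adjusted p = 0.0267), and its call ended without AOS replicate 2, busulfan replicate 1, combined replicate 1 or 3, or control replicate 1 or 3 (up to 0.0639).

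Of 12 tested genes of the insulin-like growth factor axis outside the binding proteins above, 1 rose and 0 fell. Igf2r, the receptor that carries Igf2 to lysosomes, stood at 104 to 125 CPM without and 135 to 154 CPM with busulfan, a log2 rise of 0.34 (SE 0.04, edgeR adjusted p = 0.00223). Of 43 other tested genes of the senescence-associated secretory phenotype, 8 rose and 2 fell (over all genes 1114 and 763, or 767 and 1092 with upper-quartile scaling). Gdf15, a stress cytokine that is also a p53 target, rose from 1.57 to 23.0 CPM as a mean of libraries (log2 3.87, SE 0.23, edgeR adjusted p = 1.92e-05). Serpine2, a protease inhibitor gene, rose by 0.61 (SE 0.08), and Icam1, an adhesion molecule gene, by 0.29 (SE 0.05). Mmp13, a collagenase gene, fell by 2.11 (SE 0.38) from a low level, 0.612 to 2.74 CPM without and 0.243 to 0.589 CPM with busulfan. The list's median log2 fold change was 0.14, against -0.01 for all genes. Of 22 proliferation genes, 1 rose, Top2a, the DNA topoisomerase of dividing cells (log2 0.57, SE 0.16, edgeR adjusted p = 0.0441), and it kept its call in 3 of the 12 fits without a library, those without busulfan replicate 2 or combined replicate 1 or 2 (up to 0.1004). The median log2 value of this list was 0.25, against -0.01 for all genes. At an unadjusted p under 0.05 by edgeR's quasi-likelihood test there were 8 of the 22, against 29.2% of all genes. Among these 8, Mcm3 was lower (-0.23) and all the others were higher, from 0.30 (Bub1) to 0.68 (Cenpf), with Mki67 at 0.48. Of the 18 related genes that the naming rule picked from these lists, 2 (Ccnd2 and Gdf15) remained called without control replicates 2 and 3 and AOS replicate 1, and the other 16 had edgeR adjusted p from 0.0585 to 0.350. All 16 kept their direction there, with log2 values 0.734 to 1.19 times those over all 12 libraries.

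**Figure D4:**
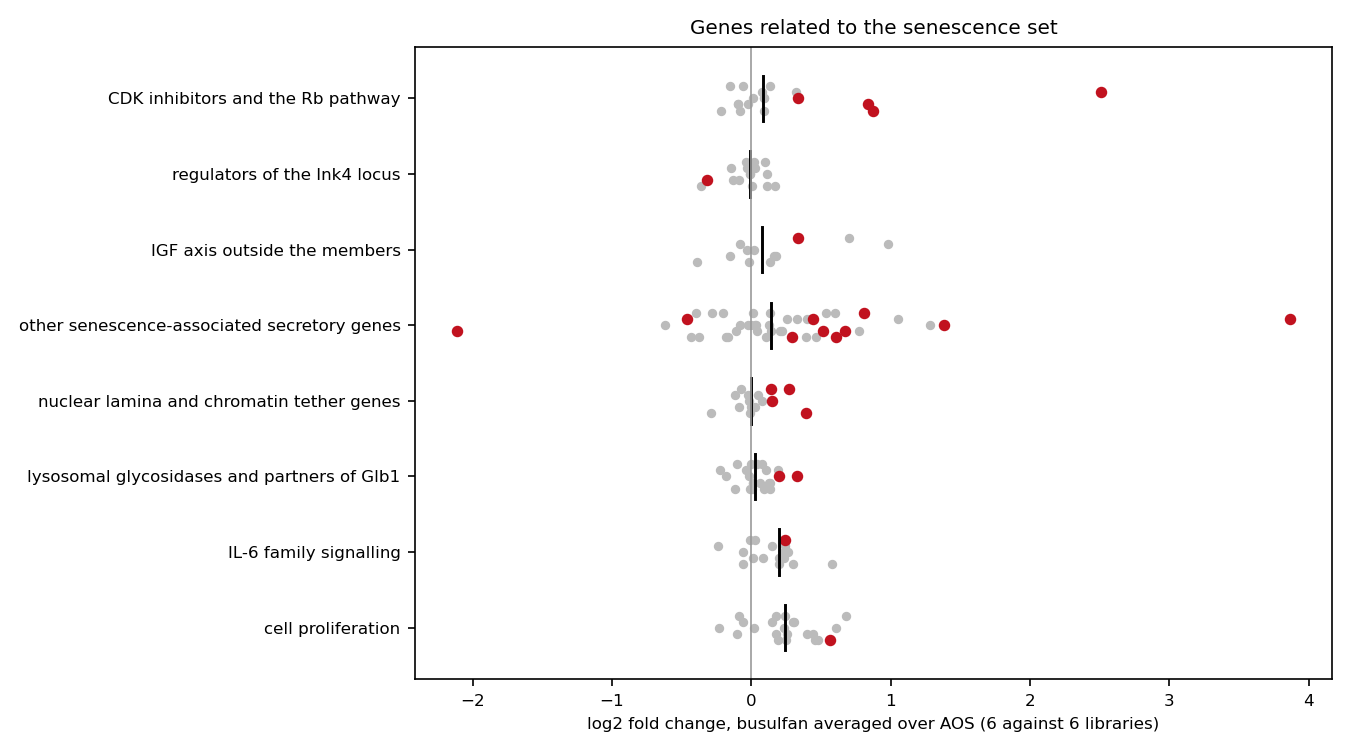
Log2 fold change in the busulfan average (x axis) of each tested gene in 8 related lists, with 1 point per gene, red for an edgeR adjusted p under 0.05 and grey otherwise, and a bar at the list's median. Gdf15 (3.87) and Cdkn1a (2.51) are the furthest to the right and Mmp13 (-2.11) to the left, and medians run from -0.01 to 0.25.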

How the data were processed

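The 12 RNA sequencing libraries of mouse lung were grouped and numbered by the sample titles, 3 per group. The authors deposited 1 table, with estimated counts per gene and library (not normalised, 75.9 to 77.1% whole numbers per library) and FPKM values that the authors made, a unit inferred from the values because the deposited headers name none. Per the submitters' processing notes, reads were placed on build mm10, and for the aligner, the counter and strand use the entry is: not given in the sources used here. Titles write BA0 for the group that the design text calls B0, and the labels' tissue field reads Cells.

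Counts were rounded, filtered with filterByExpr, scaled by TMM (factors 0.963 to 1.03) and fitted over all 12 libraries with 1 mean per group in edgeR 4.0.16 (R 4.3.3). Contrasts used the quasi-likelihood F test with Benjamini-Hochberg adjustment over 15863 genes and calls at an adjusted p under 0.05. SEs are the log2 fold change divided by the square root of F, and 95% intervals use that SE. Levels are TMM-scaled CPM, and only FPKM was compared between genes. Totals and the floor of 3 counts cover counting error only. DESeq2 1.42.0, other scalings, no filter, fewer groups, a replicate block and leaving out libraries were the alternatives. Correlations are Pearson's r of log2 CPM, given as descriptions without tests. The related genes named are, per list, up to 4 called in the busulfan or AOS average, by smallest p, and Cdkn1a. The 10 genes and the lists were chosen with earlier results of these data known, and the fit without 3 libraries was added after the data had been seen. No 2 libraries of a group were near-copies: chi-square of their counts, per degree of freedom, was at least 18.2. A gene that the naming rule picked is not reported here.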

Additional observations from a re-analysis of the deposited data

How the results depend on the processing

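Igfbp7 kept its call in the busulfan average under DESeq2, upper-quartile and median-of-ratios scaling, no filter on low counts, and every fit without 1 library, with log2 values of 0.30 to 0.37, and lost it (0 of the 10 genes called) in the fit without control replicates 2 and 3 and AOS replicate 1, which was added after the data had been seen and has 1 control library, assumed to vary like the others. The number of the 10 genes called by DESeq2 was 1 for busulfan against control and 2 for the combined group against AOS. Leaving out 1 library gave 0 to 1 calls for the latter and 1 to 2 in the average.

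Values near 0 changed direction. In the busulfan average the log2 value of Lmnb1 was -0.0019 without the filter, -0.042 with upper-quartile scaling, -0.024 without the 3 libraries and -0.092 to 0.074 without single libraries. That of Cdkn2c was 0.088 without the 3 libraries and -0.12 to 0.14 without single libraries, those of Cdkn2b and Glb1 were -0.11 to 0.069 and -0.17 to 0.059, and that of Il6 was -0.13 to 0.86. For busulfan against control, Igfbp5 ran from -0.28 to 0.22 and Il6 from -1.15 to 0.81 without single libraries. The cause was not tested.

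The replicate numbers are not said to pair animals: same-numbered libraries had correlations of their deviations from -0.25 to 0.18, over 0.1 in 2 of 18 pairs. With a replicate block, Igfbp7 stayed called (log2 0.34, edgeR adjusted p = 0.0128) as 1 of the 10 genes, the log2 values of Cdkn2b, Cdkn2c and Lmnb1 became 0.0011, 0.012 and -0.0044, Zmpste24 and Cbx5 lost their calls (edgeR adjusted p = 0.0633 and 0.0656), and the counts of all genes became 1351, 55 and 163.

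The counts of all genes called were 1877 in the busulfan average (1114 higher, 763 lower; 767 and 1092 with upper-quartile scaling), 192 for busulfan against control and 365 for the combined group against AOS. These became 2661, 961 and 1223 by DESeq2, and 89, 2 and 11 without the 3 libraries. With only the compared groups in the fit the pairs gave 13 and 191. Without single libraries the ranges were 1079 to 1667 in the average, with 1079 to 1234 without busulfan replicate 3, combined replicate 2, or the first or second library of the control or AOS group. They were 35 to 230 for busulfan against control, with 35 to 112 without any 1 control or busulfan library, AOS replicate 1 or 2 or combined replicate 2. For the combined group against AOS they were 42 to 492, with 42 to 220 without any 1 AOS library, combined replicate 1 or 2 or control replicate 2. For the comparisons of AOS, the average over busulfan and the interaction, 0 genes became at most 1 without a library and 12, 32, 12 and 18 by DESeq2. Cdkn2a and Il6 rested on 1 to 85 counts per library and had the highest coefficients of variation of the 10 genes, 104% and 68.0%; the parts of depth and of spread between libraries were not tested.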
